A study of Mus musculus with 18 samples.

Results

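Cebpa, Cebpb and Cebpd encode the transcription factors C/EBPα, C/EBPβ and C/EBPδ, and their RNA was followed across the 8 groups of arrays in this series. The members were the probe sets whose gene symbol was exactly one of these names. There were 3 of them, 1 per gene, among 8251 genes with a probe set of their own on the array, and all 3 passed the filter on low values. Cebpa was read by probe set 98447_at, Cebpb by 92925_at and Cebpd by 160894_at.

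C3H10T1/2 is a mouse embryo fibroblast line that can be turned into fat cells in culture. Each array held mRNA pooled from 6 cultures, collected when the cells had been without serum for 72 h and confluent for 24 h. The UT group (3 arrays, letters not spelled out in the labels) had none of the agents below. The EGF group (2 arrays) had epidermal growth factor at 10 nM for 24 h, the TCDD group (2 arrays) had the dioxin TCDD, a ligand of the aryl hydrocarbon receptor, at 10 nM for 72 h, and the EGF+TCDD group (2 arrays) had both. The IDMB group (3 arrays) had the hormone mix that starts fat cell formation for 24 h, given in the labels as 1 µM BRL49653 (a PPARγ agonist), 1 µM dexamethasone (a glucocorticoid), 0.5 µM IBMX (a phosphodiesterase inhibitor that raises cAMP, usually given at a far higher dose, so the unit is uncertain) and 10 µg/mL insulin. The IDMB+EGF, IDMB+TCDD and IDMB+EGF+TCDD groups (2 arrays each) joined the mix to the same EGF and TCDD treatments. All groups thus shared the line, serum withdrawal and confluence, and nothing in the labels says that the arrays of a group came from separate experiments, so the p-values measure the spread between these arrays.

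C/EBP proteins are leucine zipper factors that bind DNA as dimers with each other and with related proteins. In the standard account of fat cell formation, C/EBPβ and C/EBPδ appear within hours of the hormone mix, C/EBPβ mainly in response to cAMP and C/EBPδ mainly in response to glucocorticoid. They then turn on C/EBPα and PPARγ, which maintain each other and switch on the genes of the mature fat cell, while C/EBPα also takes part in growth arrest.

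Promoter sequences are shown for the pair of members that RefSeq's promoter table (GRCm38.p6) held, because Cebpa and Cebpb followed different patterns below and cAMP, glucocorticoid, C/EBP and dioxin signals act through known short DNA motifs. Each is the 250 bases before the annotated start on the plus strand, chr7:35119043-35119292 for Cebpa and chr2:167688665-167688914 for Cebpb. Capitals mark matches to any motif searched.
Cebpa: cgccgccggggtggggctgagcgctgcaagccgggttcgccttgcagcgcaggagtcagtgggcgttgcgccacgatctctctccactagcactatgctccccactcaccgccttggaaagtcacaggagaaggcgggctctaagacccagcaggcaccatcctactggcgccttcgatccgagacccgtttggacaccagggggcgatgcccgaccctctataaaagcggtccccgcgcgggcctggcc
Cebpb: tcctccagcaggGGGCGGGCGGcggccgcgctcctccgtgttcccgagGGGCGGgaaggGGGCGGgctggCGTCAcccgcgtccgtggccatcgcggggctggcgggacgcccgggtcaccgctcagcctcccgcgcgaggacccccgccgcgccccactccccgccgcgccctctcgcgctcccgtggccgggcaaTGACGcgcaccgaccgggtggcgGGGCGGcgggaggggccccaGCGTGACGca
The 6 motifs were searched on both strands: CCAAT (the CCAAT box), TTNNGNAA (C/EBP type), TGACG (the core of the cAMP response element), GCGTG (the core of the dioxin response element), TGTTCT (the core of the glucocorticoid response element) and GGGCGG (Sp1 type). The Cebpb sequence held TGACG 3 times, with first bases 180 (minus strand), 53 and 7 bases before the start. It held GCGTG once, 10 bases before the start and overlapping the last TGACG, and GGGCGG 5 times, the first pair overlapping each other. No match to the 6 motifs was found for Cebpa. The search and its background used the table's window of 300 bases, the 250 shown and the 50 after the start, and no match lay in those 50. Over all 32851 such windows in the table, 20.8% held TGACG, 32.4% GCGTG, 35.7% GGGCGG, 37.4% CCAAT, 40.7% TTNNGNAA and 19% TGTTCT. The GC content was 66.4% for Cebpa and 81.6% for Cebpb. These matches describe the letters only.

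The deposited values were signal intensities on a linear scale, with array medians from 793.35 to 935.7. Of 10 fibroblast markers 8 passed the filter on low values, with Vim and Lum under it, against 2 of 9 macrophage and other myeloid markers, 1 of 4 endothelial and 1 of 5 epithelial and liver markers. Of the fat cell markers 3 of 5 on the array passed, and of the skeletal muscle markers 3 of 4, and neither sum separated arrays without IDMB from those with it. The summed myeloid level ran from 3011.2 to 4274.8 on arrays without IDMB and from 2704.2 to 5929.8 on arrays with it. For actin the control signal from the 3′ end over that from the 5′ end, a sign of RNA quality, was 1.23 to 1.93 on the 9 arrays without IDMB and 1.8 to 3.8 on the 9 with it. For Gapdh the same ratio was 0.854 to 2.71 without IDMB and 1.05 to 2.86 with it, and it was lower with TCDD alone than with EGF and TCDD together in both settings. In a culture, fewer cells of a type and less RNA per cell cannot be told apart, and with 2 or 3 arrays a group the number of arrays sets the precision. A difference is called higher or lower where the adjusted p of limma, over 7134 probe sets, was under 0.05. Arrays that did not overlap are given as a description. Groups of 2 or 3 arrays can separate without an effect, and the share of all probe sets that did so was not counted.

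**Figure D1:**
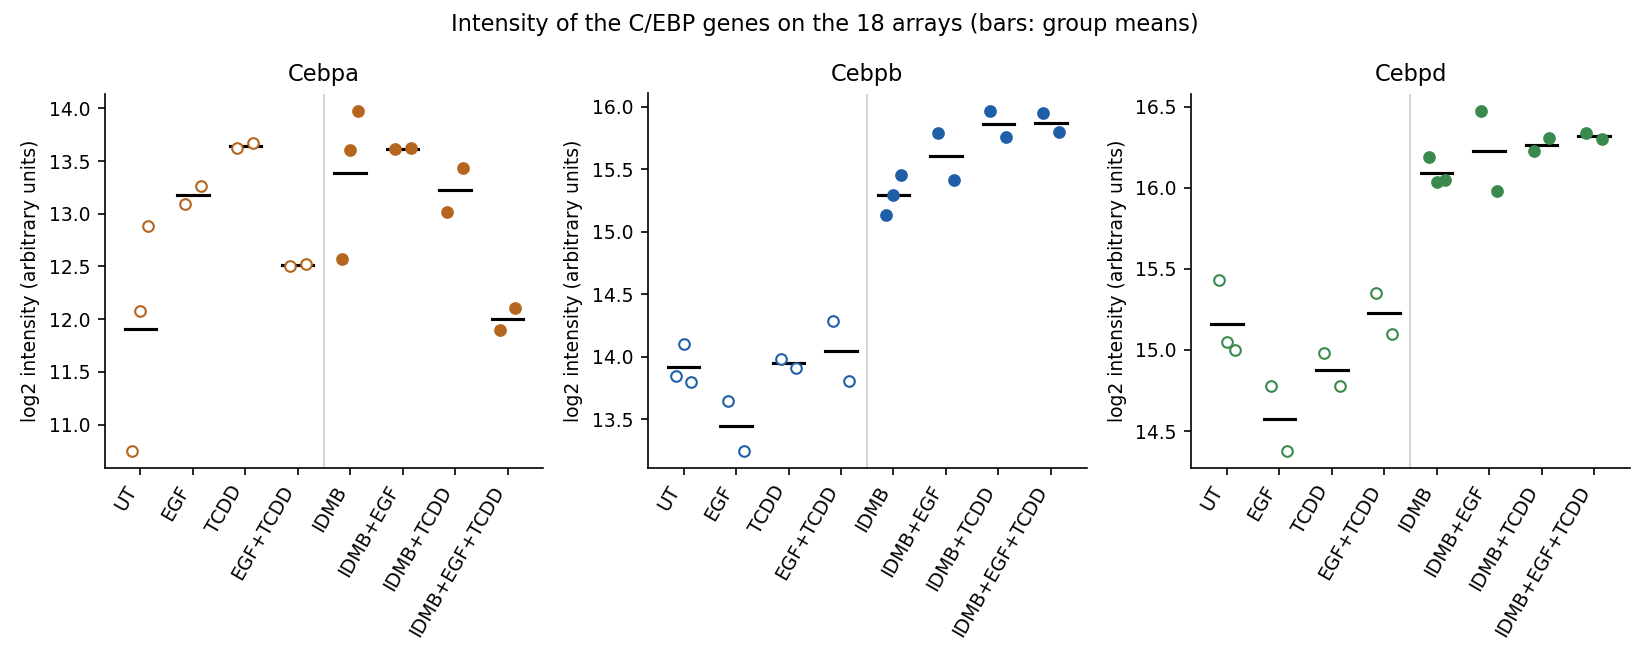
Log2 signal intensity of Cebpa, Cebpb and Cebpd on each of the 18 arrays by group; points are arrays and bars are group means. Every IDMB array lies above every array without IDMB for Cebpb and Cebpd, while the Cebpa arrays of the 2 settings overlap.

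Cebpb, the early cAMP-responsive member, was higher with IDMB in all 4 settings. Without IDMB its intensity was 14698.5, 17606.8 and 14265.9 on the UT arrays, 12844.9 and 9733.9 with EGF, 16151.4 and 15430.4 with TCDD, and 19986.7 and 14327.4 with EGF and TCDD. With IDMB it was 35851.3, 40164.5 and 44770.0 with the mix alone, 56653.2 and 43636.3 with EGF, 64098.3 and 55393.2 with TCDD, and 63276.3 and 56798.7 with both. The lowest IDMB array was thus above the highest array without it, and the EGF arrays were the lowest of all.

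The rise of Cebpb with IDMB was 1.38 on the log2 scale against UT (SE 0.164, adjusted p = 2.57e-05), where 14.1% of all probe sets tested were called. On EGF it was 2.15 (SE 0.201, adjusted p = 4.04e-06; 10.8% called) and on TCDD 1.92 (SE 0.201, adjusted p = 2.05e-05; 12.8% called). With both agents present it was 1.82 (SE 0.201, adjusted p = 3.43e-05; 6.5% called). The mean over the 4 settings was also 1.82 (SE 0.0961, adjusted p = 8.19e-10), a fold of 3.52 (95% interval 3.06 to 4.06), beside 34.1% of probe sets called. An exact permutation test of this mean over relabelled arrays within settings gave p = 0.000463, the smallest that the relabellings allow (0.00208 adjusted over 9 such tests, two-sided).

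Cebpd, the glucocorticoid-responsive early member, moved with Cebpb. Its intensity without IDMB was 44194.3, 33944.0 and 32726.5 on the UT arrays, 28063.6 and 21302.5 with EGF, 32302.9 and 28036.9 with TCDD, and 41849.7 and 35131.3 with EGF and TCDD. With IDMB it was 74879.3, 67055.6 and 67819.6 with the mix alone, 91148.2 and 64637.5 with EGF, 76588.2 and 81022.7 with TCDD, and 82918.0 and 80671.5 with both. The arrays with IDMB again lay above all those without it, and the EGF arrays included the lowest.

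Cebpd rose with IDMB by 0.93 on the log2 scale against UT (SE 0.163, adjusted p = 0.000851) and by 1.65 on EGF (SE 0.199, adjusted p = 5.93e-05). On TCDD the rise was 1.39 (SE 0.199, adjusted p = 0.000324) and with both agents 1.09 (SE 0.199, adjusted p = 0.00308). The mean rise was 1.27 (SE 0.0955, adjusted p = 4.45e-08), a fold of 2.4 (95% interval 2.09 to 2.77), with the same exact permutation p of 0.000463 (0.00208 adjusted). With the actin ratio, which was higher on IDMB arrays, as a covariate, the mean rise in the limma fit was 1.94 for Cebpb (adjusted p = 6.71e-05) and 1.22 for Cebpd (adjusted p = 0.00314). For Cebpd with both agents present, the same covariate left 1.04 (adjusted p = 0.192 in limma), and without the second EGF+TCDD array that rise was not called (adjusted p = 0.0544).

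The response of Cebpb and Cebpd to IDMB was not called different between settings. For Cebpb the IDMB effect changed with EGF by 0.34 (95% interval -0.06 to 0.75, adjusted p = 0.496 in limma) and with TCDD by 0.11 (-0.30 to 0.51, adjusted p = 0.952). For Cebpd the changes were 0.21 with EGF (-0.19 to 0.62, adjusted p = 0.687) and -0.05 with TCDD (-0.46 to 0.35, adjusted p = 0.972). Few probe sets were called in these tests, 0.126% for IDMB by EGF and 0.112% for IDMB by TCDD. With both agents against neither, the IDMB effect changed by 0.45 for Cebpb (-0.10 to 1.00, adjusted p = 0.55) and 0.16 for Cebpd (-0.38 to 0.71, adjusted p = 0.877), where 0.757% were called. The intervals reach up to 1.00, so the test does not show that the responses were equal.

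**Figure D2:**
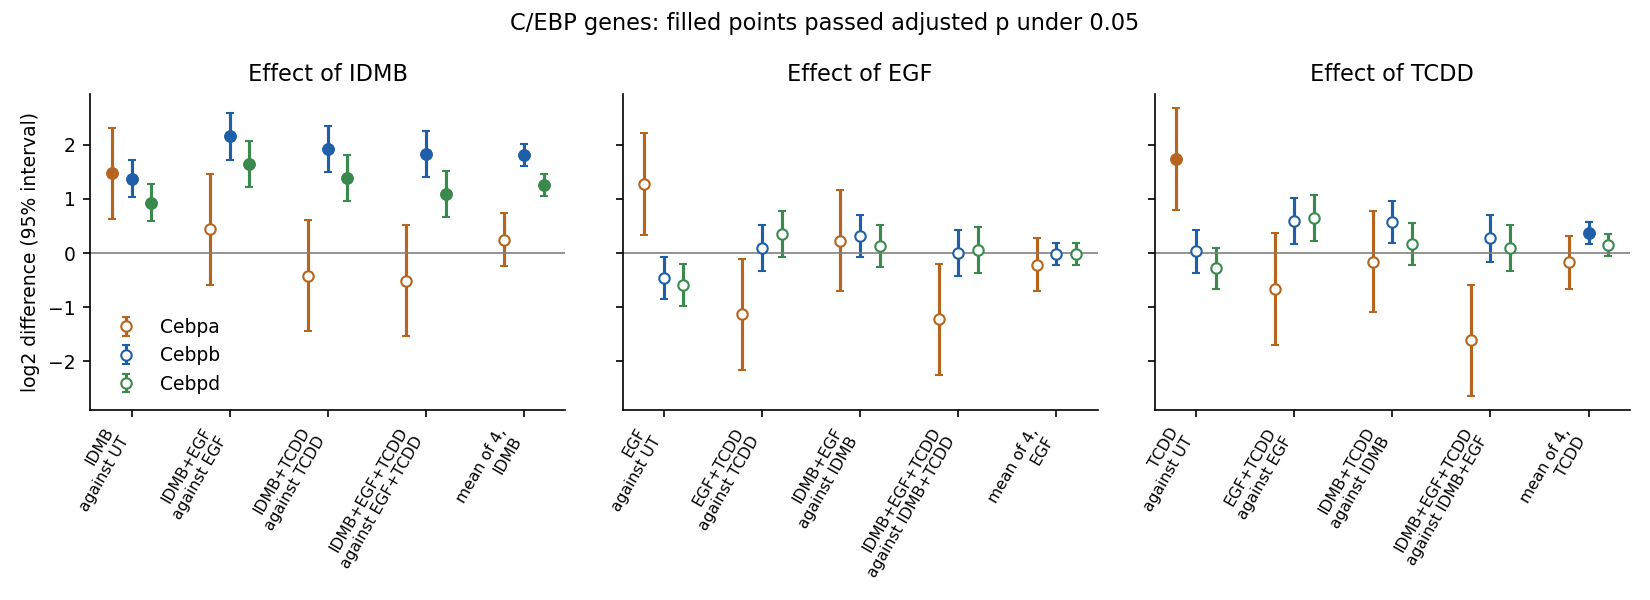
Differences in log2 intensity for the effect of IDMB (left), EGF (middle) and TCDD (right) in each of the 4 settings and as their mean, with 95% intervals; filled points had an adjusted p under 0.05. The IDMB effects of Cebpb and Cebpd are filled in all 4 settings (1.38 to 2.15 and 0.93 to 1.65), and the Cebpa points lie on both sides of 0 in each panel. Of the interactions tested for Cebpa, only EGF by TCDD was called.

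Cebpa, the later member linked to the mature fat cell, did not follow the other pair. On the UT arrays its intensity was 1723.6, 4327.7 and 7549.5, with EGF 8729.6 and 9831.8, with TCDD 12598.0 and 13041.2, and with EGF and TCDD 5799.9 and 5890.4. With IDMB alone it was 6079.2, 12415.1 and 16147.0, with IDMB+EGF 12497.7 and 12578.5, with IDMB+TCDD 8289.8 and 11099.3, and with IDMB+EGF+TCDD 3823.4 and 4411.1. The UT and IDMB arrays were widely spread (SD 1.08 and 0.729 on the log2 scale), while the TCDD and IDMB+EGF arrays were close together and high.

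IDMB raised Cebpa by 1.48 on the log2 scale against UT (SE 0.396, adjusted p = 0.0183 in limma), although the arrays of the groups overlapped. Without the first UT array the adjusted p was 0.0789, without the second IDMB array 0.0697 and without the third 0.0901. In the other settings the difference was 0.44 on EGF (adjusted p = 0.642), -0.42 on TCDD (0.631) and -0.51 with both agents (0.633). The mean over the 4 settings was 0.25 (SE 0.232, adjusted p = 0.448; exact permutation p = 0.39, 0.702 adjusted). The Cebpa response to IDMB differed by -0.57 with EGF (adjusted p = 0.654), by -1.42 with TCDD (0.427) and by -1.99 with both (0.194), and none of these changes was called. Without the third UT array the change with both was called (-2.48, adjusted p = 0.0372 in limma), and with other arrays left out it came to as little as -1.41.

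TCDD raised Cebpa against UT by 1.74 on the log2 scale (SE 0.443, adjusted p = 0.0272), a fold of 3.34, and both TCDD arrays were above all 3 UT arrays. In this comparison 7.68% of probe sets were called. The call was lost when the first or second UT array or either TCDD array was left out (adjusted p 0.0594, 0.0653, 0.124 and 0.126). With the Gapdh ratio, which was lowest on the TCDD arrays, as a covariate the difference was 1.14 (adjusted p = 0.406). On the other settings the Cebpa differences with TCDD were -0.66 on EGF (adjusted p = 0.999; 0.28% of probe sets called), -0.16 on IDMB (0.884; 6.59% called) and -1.61 on IDMB+EGF (0.297; 0.364% called). Their mean over the 4 settings was -0.17 (SE 0.232, adjusted p = 0.739; exact permutation p = 0.68, 0.874 adjusted).

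EGF gave no called difference in Cebpa in any single setting. Its values were 1.27 against UT (SE 0.443, adjusted p = 0.102; 6.17% of probe sets called), -1.13 on TCDD (0.209; 3.5% called), 0.23 on IDMB (0.824; 3.8% called) and -1.22 on IDMB+TCDD (0.33; 0.28% called). The mean was -0.21 (SE 0.232, adjusted p = 0.587; exact permutation p = 0.561, 0.842 adjusted). Without the third UT array the value against UT was 1.76 and was called (adjusted p = 0.0168 in limma). With other arrays left out it went down to 0.70. The arrays of the compared groups did not overlap except on IDMB, higher with EGF against UT and lower with EGF on both settings that held TCDD. Separation of so few arrays is a description and does not stand in for a call.

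The EGF effect on Cebpa differed between cells without and with TCDD. Averaged over the settings without and with IDMB, the EGF effect was lower in the presence of TCDD by 1.93 on the log2 scale (interaction -1.93, SE 0.465, 95% interval -2.92 to -0.95, adjusted p = 0.0302), where 4.47% of probe sets were called. Among the arrays with IDMB the interaction was -1.46 (SE 0.657, adjusted p = 0.335; 0.981% called). The call held without any 1 of the 6 UT and IDMB arrays and was lost without any 1 of the other 12 (adjusted p up to 0.0693). The Gapdh ratio moved the same way as the groups, 2.34 and 2.71 with EGF and TCDD against 0.854 and 0.919 with TCDD, and with it as a covariate the interaction was -1.04 (adjusted p = 0.741). Since the ratio moved with the groups, this fit cannot tell RNA quality apart from the agents. The agents together against neither gave 0.61 (adjusted p = 0.502; 5.4% of probe sets called) without IDMB and -1.38 (SE 0.443, adjusted p = 0.0752; 6.81% called) with it, and in the latter all IDMB+EGF+TCDD arrays were below all IDMB arrays.

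**Figure D3:**
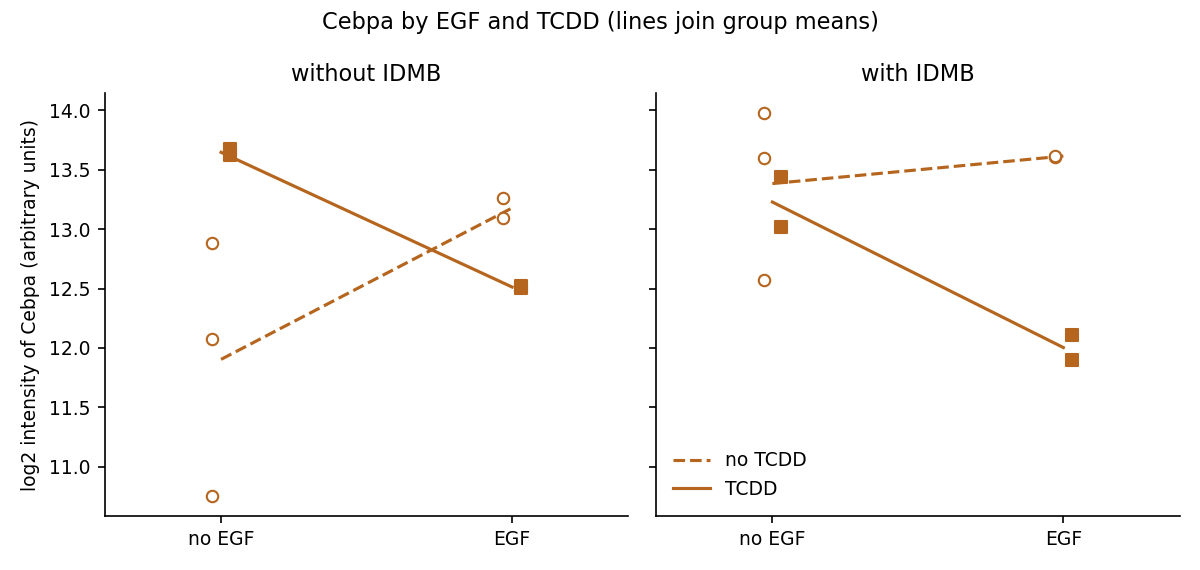
Cebpa log2 intensity without and with EGF, in cells without TCDD and with TCDD, drawn separately without IDMB (left) and with IDMB (right); points are arrays and lines join group means. With TCDD the line falls in both panels, by 1.13 and 1.22 on the log2 scale, neither of them called alone, and the interaction over both panels was -1.93.

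For Cebpb and Cebpd the mean effects of EGF and TCDD were small beside those of IDMB. Single Cebpd values were larger, up to 0.65 for TCDD on EGF (not called), beside 0.93 for IDMB against UT. EGF alone left Cebpb at -0.47 against UT (adjusted p = 0.153) and Cebpd at -0.58 (adjusted p = 0.0695), in both cases with all EGF arrays below all UT arrays. The Cebpd value was called after quantile normalization (-0.52, adjusted p = 0.0376 in limma) and without the first or the second IDMB+EGF array (adjusted p = 0.0466 and 0.0465). In the other settings the EGF values ran from 0.01 to 0.31 for Cebpb and from 0.05 to 0.35 for Cebpd, and none was called. The mean EGF effect was -0.01 for each (adjusted p = 0.953 and 0.959; exact permutation p = 0.918 and 0.935, both 0.935 adjusted), where 13.1% of probe sets were called.

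TCDD raised Cebpb by a mean of 0.37 on the log2 scale over the 4 settings (SE 0.0961, adjusted p = 0.0334), a fold of 1.29 (95% interval 1.12 to 1.49), beside 5.54% of probe sets called. The exact permutation p over 3600 relabellings was 0.00389 (0.0117 adjusted). In the single settings the Cebpb difference was 0.03 against UT, 0.60 on EGF, 0.57 on IDMB (adjusted p = 0.0735) and 0.27 on IDMB+EGF, and none of the 4 was called. Leaving out 9 of the 18 arrays 1 at a time ended the mean call (adjusted p up to 0.1), with values from 0.31 to 0.43. These 9 were the first UT array, the second EGF array, both TCDD arrays, the first EGF+TCDD array, the second IDMB+EGF array, the first IDMB+TCDD array and both IDMB+EGF+TCDD arrays.

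Cebpd had a mean TCDD difference of 0.16 (SE 0.0955, adjusted p = 0.394; exact permutation p = 0.256, 0.576 adjusted). Its single values were -0.28 against UT, 0.65 on EGF, 0.17 on IDMB and 0.09 on IDMB+EGF, and none was called. Cebpd is a bright probe set, and the brightest 0.1% of probe sets started at 77274.3 and 115493 on the TCDD arrays against 131504 or more on the other 16. After quantile normalization its TCDD difference against UT was -0.07. The EGF by TCDD interaction was 0.13 for Cebpb (adjusted p = 0.73) and 0.42 for Cebpd (adjusted p = 0.207), and among arrays with IDMB -0.30 (0.664) and -0.08 (0.933). With both agents on top of IDMB, Cebpb differed by 0.58 (adjusted p = 0.0706) and Cebpd by 0.23 (0.529), and without IDMB by 0.13 (0.763) and 0.07 (0.891).

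The group means of Cebpb and Cebpd fell in the same order at the top. For Cebpb they were, on the log2 scale, 15.87 for IDMB+EGF+TCDD, 15.86 for IDMB+TCDD, 15.60 for IDMB+EGF and 15.29 for IDMB. A gap of 1.24 followed, then 14.05 for EGF+TCDD, 13.95 for TCDD, 13.92 for UT and 13.45 for EGF. Neighbours in this order overlapped in their arrays except across the gap and between UT and EGF. For Cebpd the 4 IDMB groups ran from 16.32 to 16.09 in the same order, and after a gap of 0.86 came EGF+TCDD at 15.23, UT at 15.16, TCDD at 14.88 and EGF at 14.58, with no overlap of arrays across the gap and between UT and TCDD.

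The Cebpa order differed, with TCDD at 13.65 and IDMB+EGF at 13.61 first, then IDMB at 13.38, IDMB+TCDD at 13.23, EGF at 13.18, EGF+TCDD at 12.51, IDMB+EGF+TCDD at 12.00 and UT at 11.90. Of these neighbours only TCDD and IDMB+EGF, EGF and EGF+TCDD, and EGF+TCDD and IDMB+EGF+TCDD had arrays that did not overlap. Across the 9 arrays without IDMB the correlation of log2 intensities was 0.756 for Cebpb and Cebpd and -0.711 for Cebpa and Cebpd. Across the 9 arrays with IDMB it was 0.665 and -0.43. Arrays of a group share their treatment and all genes of an array share its scaling, so these correlations are descriptions.

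The genes most like each member over the 8 group means were ranked among 5437 others by Pearson's r. Cebpb was most like Cebpd (0.985), followed by Wdr92 (0.982), Etnk1 (0.978), an ethanolamine kinase, Clk1 (0.977), a splicing kinase, and Serpina3n (0.976), a serine protease inhibitor of the acute phase. Its most opposed genes were Spata13 (-0.981) and Syt3 (-0.979). Cebpd was most like Mrpl45 (0.988), Hacd3 (0.986), Cebpb (0.985), Vcan (0.979), the matrix proteoglycan versican, and Bcap29 (0.976). Its most opposed genes were Banf1 and Fdps (-0.981 each), the latter an enzyme of isoprenoid synthesis. With r above 0.9 there were 159 genes for Cebpb and 143 for Cebpd but 1 for Cebpa. That gene was Olfr94, an olfactory receptor (0.938), then Mtmr1 (0.870), Mrpl50 (0.867), Pde6d (0.866) and Sacm1l (0.856), whose r over single arrays was -0.0957. The most opposed to Cebpa were Cxcl1, a chemokine (-0.937), and Siae (-0.877). The 8 points fall into groups with and without IDMB, so these values of r describe the pattern and carry no test.

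Target genes of C/EBP in fat cells were mostly higher with IDMB. Of 21 genes of this list on the array, 15 passed the filter and were tested. Of these 15, 9 were higher and 0 lower in the mean IDMB effect, beside 34.1% of all probe sets called. The median of the 15 was 1.13 against -0.04 over all probe sets tested. Each gene was counted by the probe set with its highest mean. Pnpla2 (2.08, adjusted p = 2.36e-10), Lipe (1.86, adjusted p = 4.73e-06) and Mgll (1.46, adjusted p = 4.63e-05) encode lipases of stored fat, and Pdk4 (2.25, adjusted p = 1.11e-05) a kinase that holds back pyruvate dehydrogenase. The other 5 were Fabp4, Scd1, Adipoq, Pparg and Irs2. Adipoq, Fabp4, Lipe and Irs2, and Lpl among those not called, reached the filter only through groups with IDMB. Their selection favours a rise with IDMB, so the count and the median are partly set by it. In the mean TCDD effect, where 5.54% of all probe sets were called, 5 of the 15 were lower and 0 higher. They were Pnpla2 (-0.71, adjusted p = 0.000427), Gys1 (-0.85, adjusted p = 0.00796), Pparg (-0.83, adjusted p = 0.0218), Lpl (-1.52, adjusted p = 0.0257) and Adipoq (-1.03, adjusted p = 0.0318). Adipoq and Lpl reached the filter only through the IDMB group, which held no TCDD, so selection favours their lower values with TCDD. Without IDMB the list median with TCDD was 0.08 against UT (1 called lower, beside 7.68% of all probe sets called) and -0.39 on EGF (0 lower, beside 0.28%). With IDMB it was -1.06 on IDMB alone (3 lower, beside 6.59%) and -0.715 on IDMB+EGF (0 lower, beside 0.364%). The change of the TCDD effect with IDMB was called for 1 of the 15, which was lower (list median -0.615), beside 0.112% of all probe sets. Where so few probe sets were called, a count of 0 says little. Lpl was under the floor on all arrays of IDMB+TCDD and IDMB+EGF+TCDD and on some UT and EGF arrays, and its other probe set gave -0.45 (adjusted p = 0.569). With EGF, where 13.1% of all probe sets were called, 2 were lower, Pnpla2 (-0.61, adjusted p = 0.00161) and Pparg (-0.88, adjusted p = 0.011).

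Pparg, the partner of C/EBPα, can be set beside Cebpa by group. Its intensity ran from 832.1 to 1542.1 on the UT arrays and from 2273.2 to 4099.5 with IDMB, from 765.4 to 964.5 with TCDD and from 607.8 to 729.4 with EGF. In the EGF+TCDD group it ran from 344.1 to 663. With IDMB+EGF it ran from 1232.2 to 1701.7, with IDMB+TCDD from 1168 to 1236.6, and with IDMB+EGF+TCDD from 454.7 to 931.2. The TCDD and EGF groups without IDMB, where the Cebpa arrays were above the UT arrays, thus had Pparg arrays that overlapped UT or lay below it.

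**Figure D4:**
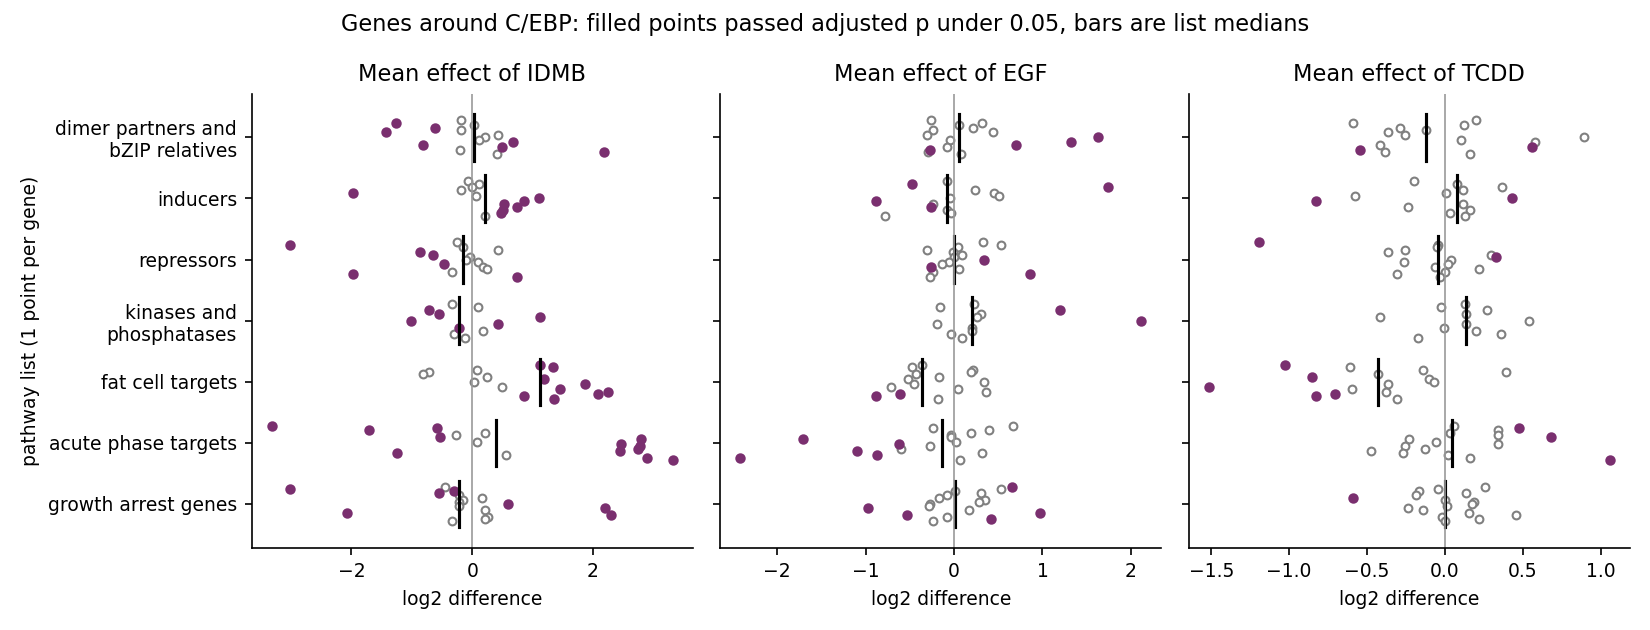
Mean effects of IDMB, EGF and TCDD in log2 intensity for the tested genes of each list around the C/EBP genes; points are genes, filled where the adjusted p was under 0.05, and bars are list medians. Fat cell target genes lie mostly above 0 with IDMB (9 of 15 called higher) and below 0 with TCDD (5 of 15 called lower). Of these genes, Adipoq, Fabp4, Lipe, Irs2 and Lpl passed the filter only through groups with IDMB, Adipoq and Lpl only through IDMB alone.

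C/EBP targets of the acute phase and of inflammation split with IDMB. Of 16 tested, 7 were higher and 5 lower, beside 34.1% of all probe sets called, with a median of 0.39. With the most variable probe set per gene instead, 8 were higher and the median was 1.5, the added gene being Igf1 (3.04, adjusted p = 1.95e-06, against 0.08 for the probe set counted). The higher ones were Serpina3n (3.32, adjusted p = 8.19e-10), the metallothionein Mt2 (2.78, adjusted p = 1.97e-08), the serum amyloid Saa3 (at least 2.90, adjusted p = 3.04e-08), the iron-carrier binding Lcn2 (2.47, adjusted p = 4.73e-08), Hp, Orm1 and Orm2. The lower ones were Ccl2 (-3.32, adjusted p = 1.17e-07), Cp, Cd14, Ptgs2 and Cxcl5. Orm1, Orm2 and Saa2 (not called) reached the filter only through groups with IDMB, and Ptgs2 only through groups without it. Selection thus favours the direction of these genes. With EGF (13.1% of probe sets called) 5 were lower and 0 higher, namely Saa3 (by at least 2.42, adjusted p = 2.8e-05, since it was under the floor on both EGF arrays), haptoglobin Hp (-1.71, adjusted p = 0.000412), Lcn2 (-0.62, adjusted p = 0.0377, but 0.00 for its other probe set), Saa2 (-0.88, adjusted p = 0.0388) and Orm2. Saa2 and Orm2 reached the filter only through groups without EGF, so selection favours their lower values with EGF. With TCDD (5.54% called) 3 were higher, Serpina3n (1.06, adjusted p = 0.00198), Cd14 (0.47, adjusted p = 0.0025) and Cxcl5 (0.68, adjusted p = 0.0209). The EGF by TCDD interaction (4.47% of probe sets called), below 0 for Cebpa, was above 0 for the 4 of the 16 that were called: Saa3 (at least 4.29, adjusted p = 0.000153), Lcn2 (1.91, adjusted p = 0.0132), Cxcl1 (1.32, adjusted p = 0.0293) and Cxcl5 (1.20, adjusted p = 0.0471). The Cxcl5 call was lost after median scaling (adjusted p = 0.0816) and quantile normalization (0.0725). The other probe sets of Lcn2 (0.44, adjusted p = 0.448) and Cxcl1 (1.06, adjusted p = 0.0673) were not called, and that of Igf1 was lower (-2.81, adjusted p = 0.0236).

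Leucine zipper relatives and dimer partners of C/EBP moved in both directions. With IDMB 3 of 15 were higher and 4 lower (median 0.03), 7 called in all beside 34.1% of all probe sets. Nfil3, a repressor of the same class, was higher by 2.19 (adjusted p = 2.08e-07), while Atf3 (-1.26, adjusted p = 0.000342, but 0.13 and 0.799 for its other probe set), Atf5 (-0.61, adjusted p = 0.000365) and Jun (-0.82, adjusted p = 0.000586) were lower. Junb and Fosl1 were the other higher genes and Dbp the other lower one, and after median scaling the counts were 5 and 4. Dbp reached the filter only through groups without IDMB, which favours its lower value. With EGF the AP-1 genes Fosl1 (1.32, adjusted p = 0.00148), Fos (1.63, adjusted p = 0.00348) and Jun (0.70, adjusted p = 0.00877) were higher and Jund lower (-0.27, adjusted p = 0.0363, and 0.0511 after median scaling), beside 13.1% of all probe sets. Fos reached the filter only through groups with EGF, which favours its higher value with EGF. With TCDD (5.54% called) Junb was higher (0.56, adjusted p = 0.0211, and 0.67 with 0.0763 for its other probe set) and Jund lower (-0.55, adjusted p = 0.000644). Cebpg, a further C/EBP gene, had a mean IDMB difference of -0.18 (adjusted p = 0.345), and Ddit3, a C/EBP homologue that blocks its partners, one of 0.43 (adjusted p = 0.0589).

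Among 13 inducers of C/EBP genes and early regulators, 6 were higher and 1 lower with IDMB (median 0.21), beside 34.1% of all probe sets called. Klf9 (1.10, adjusted p = 3.21e-06), Srebf1 (0.74, adjusted p = 1.05e-06), Stat3 (0.51, adjusted p = 8.24e-05), Stat5a, Pparg and Rxra (not called by its other probe set, adjusted p = 0.164) were higher, and Klf4, known to act on the Cebpb promoter, was lower by 1.98 (-1.98, adjusted p = 1.7e-07). With EGF (13.1% of all probe sets called) Egr2 was higher (1.75, adjusted p = 0.000548) and Pparg, Ebf1 (-0.47, adjusted p = 0.0294) and Srebf1 (-0.26, adjusted p = 0.0309) were lower. With TCDD (5.54% called) Klf9 was higher (0.43, adjusted p = 0.048) and Pparg lower, and the Klf9 call was lost after median scaling (0.0596) and quantile normalization (0.0503).

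Of 15 repressors of C/EBP expression or activity, 1 was higher and 5 lower with IDMB (median -0.15), 6 called in all, a share near the 34.1% of all probe sets. When each array was scaled to the same median the count was 3 higher and 4 lower, with Id2 not called. Cyclin D1 (Ccnd1) was lower by the most of those named (-3.02, adjusted p = 4.9e-09), with the pseudokinase Trib3 (-1.98, adjusted p = 4.66e-06) and the preadipocyte protein Dlk1 (-0.87, adjusted p = 8.61e-05), E2f1 and Id2, and Zfp36 was higher (0.75, adjusted p = 0.00145). With EGF (13.1% of all probe sets called) Trib3 (0.86, adjusted p = 0.0207) and Hdac1 (0.34, adjusted p = 0.0273) were higher and Id3 lower (-0.26, adjusted p = 0.0488), but after median scaling Hdac1 (0.0606) and Id3 (0.0544) were not called. With TCDD (5.54% called) Bhlhe40 was lower (-1.19, adjusted p = 0.000938) and Gata2 higher (0.33, adjusted p = 0.049), the latter not after median scaling (0.115) or quantile normalization (0.0679). Trib3 reached the filter only through groups without IDMB, which favours its lower value with IDMB. Bhlhe40 reached it only through groups without TCDD, which favours its lower value with TCDD.

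Kinases and phosphatases upstream of C/EBP gave 2 higher and 4 lower of 11 with IDMB (median -0.23), beside 34.1% of all probe sets called, and 2 and 2 after median scaling, without Cdk1 and Gsk3a. The MAP kinase phosphatase Dusp1 was higher (1.12, adjusted p = 9.15e-05) and its relative Dusp6 lower (-1.02, adjusted p = 0.00868), with Egfr higher (0.42, adjusted p = 0.00836, and 0.59 with 0.0807 for its other probe set) and Cdk2 (-0.55, adjusted p = 0.00615), Cdk1 and Gsk3a lower. With EGF (13.1% of all probe sets called) Dusp6 (2.12, adjusted p = 0.000484) and Cdk1 (1.19, adjusted p = 0.00554) were higher. With TCDD the largest difference among the 11 was that of Dusp6, 0.54 (adjusted p = 0.295). Of 17 genes of growth arrest or of the cell cycle 3 were higher and 4 lower with IDMB (median -0.21). The list holds genes that halt the cycle and genes that drive it, so its median has no single meaning. The 7 called in all were a share near the 34.1% of all probe sets. They included Gadd45g (2.20, adjusted p = 3.03e-09) and Gas6 (2.30, adjusted p = 5.27e-09) higher and Gas2 lower (-2.08, adjusted p = 4.84e-07). Gadd45a was also higher, and the cell cycle drivers Ccnd1, Cdk2 and Ccne1 were lower, the last not after either scaling. With EGF (13.1% of probe sets called) 5 of them were called, Gadd45g (-0.97, adjusted p = 0.000548) and Gas6 (-0.53, adjusted p = 0.0253) down and Gas2 (0.97, adjusted p = 0.00475), Ccna2 (0.66, adjusted p = 0.0205) and Pcna up, Pcna not after median scaling (0.0622). With TCDD Cdkn1a, the p21 inhibitor of the cell cycle, was the only 1 of the 17 called (-0.59, adjusted p = 0.00539), a share near the 5.54% of all probe sets.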

How the data were processed

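The deposited values are signal intensities on a linear scale per the labels, 1 table per array. The mean of each array without its outer 2% was between 2501.38 and 2501.71, and which software made them is not given in the sources used. Values under the floor of 143.5 (20th percentile) were set to it, log2 was taken, and array medians differed by a ratio of 1.18, under the limit of 1.25, so no further scaling was used. Of 12488 probe sets, 66 controls were left out, and 10833 of the rest had 1 gene symbol, 396 several and 1193 none. A probe set was tested where its highest group mean reached 9.73, the median over all log2 values, leaving 7134 for 5438 genes.

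The 8 group means were fitted over all 18 arrays with limma 3.58.1 in R 4.3.3 (variance trend on the mean, 10 residual and 6.03 prior degrees of freedom), with Benjamini-Hochberg adjustment over all 7134. Mean effects weight the 4 settings equally and interactions are differences between them, and comparisons share arrays. The fit was tested on simulated data. Exact two-sided permutation tests relabelled arrays within settings. The members and gene lists were chosen with earlier results of these data known. Named genes are the members, the 5 most alike and 2 most opposed to each over group means, up to 4 called genes with the smallest adjusted p per list and effect, and the actin and Gapdh end controls; other list genes were added to complete short counts after their values were seen. Alternatives were other scalings, no filter, no trend, fits on the compared groups alone, a replicate block, end ratios as covariates and each array left out. Protein sequences were not analysed here, nor was the Cebpd promoter.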

Additional observations from a re-analysis of the deposited data

Results flagged for a closer look

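The EGF effect on Cebpa, the C/EBP gene of the mature fat cell, differed between cells without and with TCDD by the test of the difference itself, -1.93058 on the log2 scale averaged over both IDMB settings (adjusted p = 0.0302 in limma). EGF went with 1.27 more Cebpa against UT and 0.23 more on IDMB, but with -1.13 on TCDD and -1.22 on IDMB+TCDD. With the Gapdh end ratio as a covariate the value was -1.04 (adjusted p = 0.741). With 1 array left out at a time it was called in 6 of 18 fits. Groups held 2 or 3 arrays, too few for a test of the gap between an outlying array and the rest of its group.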

How the results depend on the processing

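The rise of Cebpb and Cebpd with IDMB kept its direction under every alternative run. It was called in each but for Cebpd on EGF+TCDD, with the actin ratio as covariate (1.04) and without the second EGF+TCDD array (0.97). With 1 array left out at a time that Cebpd value ran from 0.97 to 1.22. The 2 calls against UT for Cebpa were weaker: IDMB gave 1.48 without the filter (adjusted p = 0.0864, limma), 1.69 with the actin ratio (0.101), 1.48 on the compared groups alone (0.141) and 0.90 to 1.97 with 1 array left out. TCDD gave 1.74 without the filter (0.102), 1.74 without the trend (0.0501), 1.14 with the Gapdh ratio (0.406), 1.74 on the compared groups (0.121) and 1.17 to 2.23 with 1 array left out. The Cebpa EGF by TCDD interaction was -1.93 without the filter (0.104) and without the trend (0.0562), -1.83 with the actin ratio (0.0932), -1.04 with the Gapdh ratio (0.741) and -2.18 to -1.64 with 1 array left out. The mean TCDD effect on Cebpb was 0.34 with median scaling (0.0738), 0.37 without the filter (0.074) or trend (0.0692), 0.39 with the actin ratio (0.0532) and 0.31 to 0.43 with 1 array left out. Mean effects that were not called also moved. For EGF, Cebpa went to 0.57, Cebpb to 0.27 and Cebpd to 0.025 with the Gapdh ratio, Cebpb to 0.072 with the actin ratio, and with 1 array left out Cebpb ran from -0.072 to 0.048 and Cebpd from -0.073 to 0.051. Beyond what each alternative's construction shows, the cause was not tested.

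Arrays with the same replicate number correlated in their deviations at -0.103 to 0.438 (57 pairs, median 0.0471, 14 over 0.1), and those with different numbers at -0.383 to 0.191 (84 pairs, median -0.0221, 5 over 0.1). Since most same-number pairs were not over 0.1 and the labels name nothing shared, the number was not taken as a pairing. A fit with the replicate block put the mean TCDD effect on Cebpa at 0.025 and called 8 effects that were not called without it (limma). For Cebpa these were EGF against UT (1.67, adjusted p = 0.00349), EGF+TCDD against TCDD (-1.13, 0.0448), EGF+TCDD against UT (1.00, 0.0409), IDMB+EGF+TCDD against IDMB (-0.99, 0.0411) and against IDMB+EGF (-1.61, 0.0215), EGF by TCDD with IDMB (-1.85, 0.0328) and IDMB by both agents (-1.99, 0.0174), and for Cebpd EGF against UT (-0.63, 0.0216).

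Counts of called probe sets moved by more than 1.5 times in places. With the actin ratio the mean IDMB effect called 448 (2432 without it), the mean EGF effect 0 (935; 467 without the second TCDD array), IDMB against UT 482 (1004) and IDMB+TCDD against TCDD 210 (914). Without the first IDMB+EGF+TCDD array that group against EGF+TCDD called 178 (464). With the Gapdh ratio TCDD against UT called 36 (548; 114 without the second TCDD array) and EGF by TCDD 1 (319; 111 without the first EGF array). EGF+TCDD against TCDD called 0 with the actin ratio and 1 without the second TCDD array (250), IDMB+EGF against IDMB 30 without the first IDMB+EGF array (271), EGF+TCDD against UT 10 with the Gapdh ratio (385), and EGF by TCDD with IDMB 1 with the Gapdh ratio or without the second IDMB+EGF+TCDD array (70). EGF against UT called 14 without the second EGF array (440), and the mean TCDD effect 260 without the second IDMB+EGF+TCDD array (395). Under median scaling the split of higher and lower calls was 175 and 308 for TCDD against UT (277 and 271) and 574 and 247 for IDMB+TCDD against TCDD (466 and 448), where the median of all probe sets shifted by 0.157 on the log2 scale.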
